A study of Mus musculus with 4 samples.

Results

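The genes described here encode the proteins that choose splice sites in pre-messenger RNA: the SR proteins (Srsf genes), the heterogeneous nuclear ribonucleoproteins (hnRNPs, Hnrnp genes), the CLK kinases that phosphorylate SR proteins, and 10 related genes. Members were taken by name from the gene table. They were the protein-coding genes named Srsf or Hnrnp with a family suffix, Clk1 to Clk4, and Rsrp1, Tra2a, Tra2b, Luc7l, Luc7l2, Luc7l3, Srrm1, Srrm2, Son and Pnisr. The rule found 45 of the 55414 genes in the table, namely 11 SR protein genes, 20 hnRNP genes, 4 CLK genes and the 10 others. All 45 were among the 17017 genes with enough counts to be tested.

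RNA came from the cerebral cortex of C57BL/6J mice on postnatal day 1. The 2 libraries labelled cKO (replicates 2 and 3) carried Emx1-Cre on homozygous floxed Mkk7 alleles (Mkk7flox/flox Emx1-Cre), and the 2 labelled Control (replicates 2 and 3) carried the floxed alleles without Cre (Mkk7flox/flox). Emx1-Cre acts in dorsal telencephalic progenitors and their progeny, so cells born elsewhere in the cortex keep the gene, and all animals carry the floxed alleles. Libraries held 19421470 to 22511175 counts. Map2k7, which encodes MKK7, had 47.9 and 48.2 CPM (counts scaled to library size) in the libraries labelled cKO and 38.4 and 30.4 CPM in those labelled Control. These values cover the whole gene and do not check the deletion, so each direction below rests on the labels. The library cKO 3 was male by its counts (985 of Ddx3y, a Y-chromosome gene, and 0 of Xist), and the other 3 were female (1004 to 1218 of Xist and 0 of Ddx3y). Dorsal cortex markers were present in all libraries, with summed levels of 2002 and 1964 CPM in cKO 2 and cKO 3 and 1519 and 1749 CPM in Control 2 and Control 3.

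SR proteins bind exonic enhancers through RNA recognition motifs and recruit the spliceosome through a domain rich in arginine and serine. hnRNPs bind the same transcripts and often act against them, while CLK kinases and related enzymes phosphorylate the arginine-serine domains and release SR proteins from nuclear speckles. Many of these genes control their own level through poison exons, cassette exons whose inclusion brings a stop codon into frame and sends the transcript to nonsense-mediated decay. Others hold transcripts with retained introns in the nucleus. In the newborn cortex these factors act beside neuronal regulators such as the NOVA, RBFOX and PTBP families.

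In the GENCODE M21 annotation (build GRCm38, joined on gene ID), 32 of the 45 members (71.1%) had a transcript of the nonsense-mediated decay type. Among 13292 protein-coding genes with at least 10 counts in every library the share was 27.9%. A retained-intron transcript was annotated for 35 members (77.8%), against 57.6% of those genes. Members had a median of 9 annotated transcripts and those genes 5, and neither share was adjusted for this. In 11 members a decay-type transcript had an internal exon that no protein-coding transcript of the gene shares and that carries the stop codon. The sequences below run 5′ to 3′ from the first base of such an exon to the stop codon, which is in capitals. They are shown because the gene counts analysed here add transcripts with and without these exons.
Srsf3, exon chr17:29039454-29039909, plus strand: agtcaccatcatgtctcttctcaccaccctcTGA
Srsf7, exon chr17:80204622-80205081, minus strand: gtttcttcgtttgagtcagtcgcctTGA
Srsf9, exon chr5:115328347-115328704, plus strand: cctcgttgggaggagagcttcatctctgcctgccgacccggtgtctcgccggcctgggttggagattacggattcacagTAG
Srsf11, exon chr3:158024123-158024231, minus strand: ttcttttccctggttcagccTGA
Tra2a, exon chr6:49252803-49253108, minus strand: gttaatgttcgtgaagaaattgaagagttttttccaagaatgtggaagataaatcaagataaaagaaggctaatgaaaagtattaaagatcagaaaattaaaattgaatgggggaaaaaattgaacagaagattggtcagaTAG
Tra2b, exon chr16:22258986-22259261, minus strand: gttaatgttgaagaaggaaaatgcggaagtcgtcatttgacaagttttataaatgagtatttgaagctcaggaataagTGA
Hnrnpll, exon chr17:80044940-80045022, minus strand: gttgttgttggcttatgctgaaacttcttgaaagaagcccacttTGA
The Tra2a and Tra2b exons open with the same 9 bases, gttaatgtt. The exons are 456 bases long in Srsf3, 460 in Srsf7, 358 in Srsf9, 109 in Srsf11, 306 in Tra2a, 276 in Tra2b and 83 in Hnrnpll. The other members with such an exon were Hnrnpl, Srrm1, Srrm2 and Srsf4.

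Most splicing factor genes stood slightly higher in the libraries labelled cKO, and Rsrp1 stood at 0.497 times its Control level. Of the 45 members, 36 had a positive log2 fold change and 9 a negative one, with a median of 0.11, while 49.8% of all genes tested were positive and 50.2% negative. Among the 9808 protein-coding genes with a mean of at least 10 CPM, a level that all 45 members reached, 48.2% were positive and 51.8% negative. No member passed edgeR's quasi-likelihood test after Benjamini-Hochberg adjustment over all genes (threshold 0.05), where 0.00588% of all genes were higher and 0.0411% lower. At an unadjusted p below 0.05, 13 members (28.9%) were higher, against 5.28% of all genes, and 1 member (2.22%) was lower, against 5.66%. Among the same protein-coding genes the shares were 5.39% higher and 6.07% lower. DESeq2 called 1 member after adjustment, Rsrp1, where 0.427% of all genes were called higher and 0.607% lower. limma-voom called no member, with 0.0176% of all genes called higher and 0.0294% lower.

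**Figure D1:**
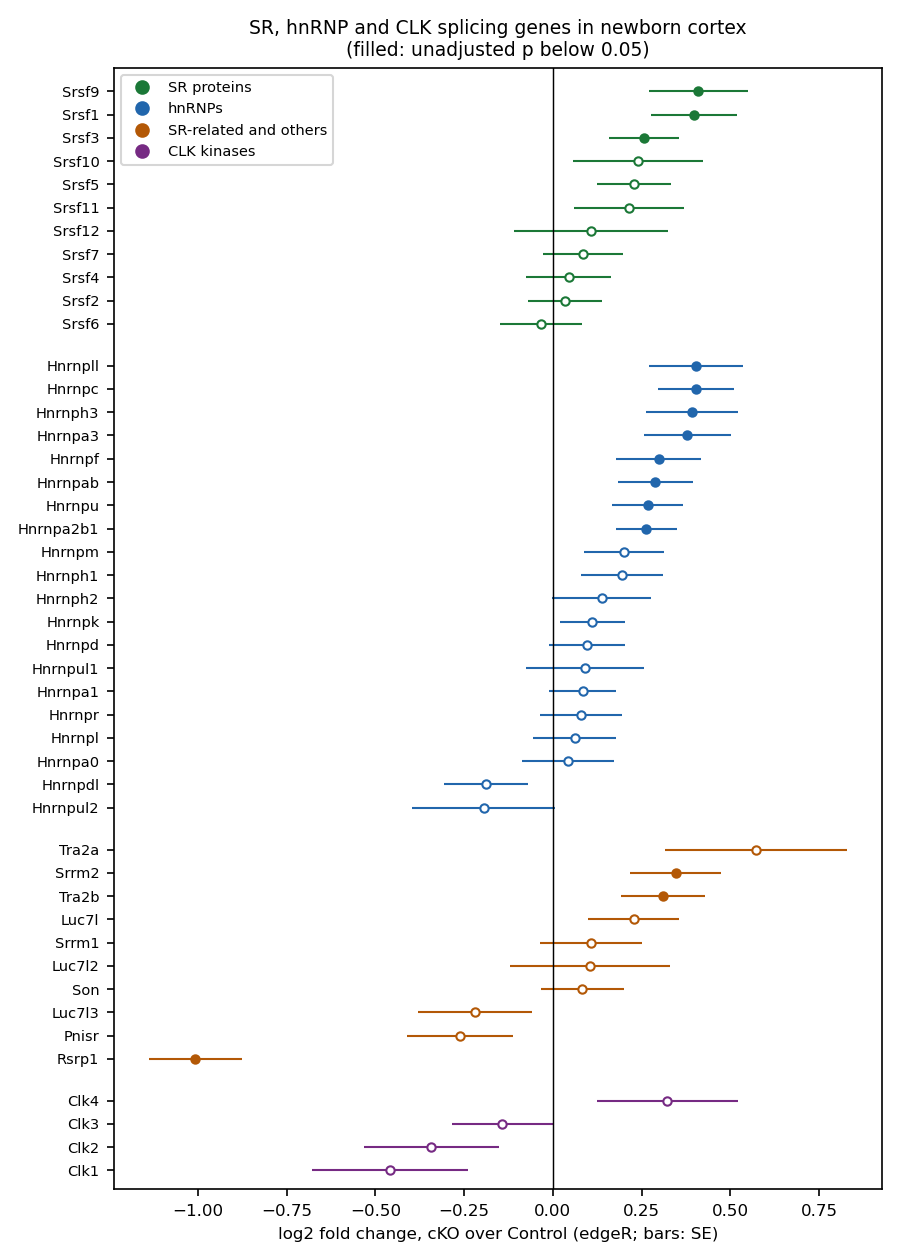
Log2 fold change of each member (cKO over Control, horizontal axis) with its standard error (bars), sorted within each of 4 groups of genes; filled points had an unadjusted edgeR p below 0.05. Most SR protein and hnRNP genes lie right of 0 by less than 0.5, Rsrp1 lies at -1.01, and 3 of the 4 Clk genes lie left of 0.

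Both libraries labelled cKO lay above both labelled Control for 22 members (48.9%), against 22.0% of all genes, and below them for 8 members (17.8%), against 22.2%. In the protein-coding genes above these shares were 20.4% and 23.3%. The remaining 15 members overlapped. The median log2 deviation of the members from their mean over libraries was 0.09 in cKO 2 and 0.05 in cKO 3, and -0.08 in Control 2 and -0.06 in Control 3. Summed over members, the level was 10128 and 10024 CPM in cKO 2 and cKO 3 and 8888 and 9158 CPM in Control 2 and Control 3. The count of 13 rests on all libraries: it was 1 without Control 2 and 2 without Control 3, when 2.63% and 2.29% of all genes were higher at that p, and 10 without cKO 2 or without cKO 3, when 5.57% and 5.08% of all genes were higher. The number of positive members stayed between 33 and 37 of 45 in these 4 fits. The fit with the replicate number as a block gave 8, with 4.07% of all genes higher. On the scale of TPM (abundance scaled to transcript length and library), 23 members did not overlap upward and 9 downward, against 17.3% and 21.8% of 13309 protein-coding genes with at least 10 counts in every library. The mean TPM was higher in libraries labelled cKO for 32 members, against 47.4% of those genes.

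The hnRNP genes, which coat nascent transcripts, had the most members at the higher end. Of 20 genes, 18 were positive, 8 had an unadjusted p below 0.05 and 12 did not overlap upward. The median log2 fold change was 0.17. Over all genes tested, 49.8% were positive, 5.28% were higher at that p and 22.0% did not overlap upward. Hnrnpc, whose tetramer binds uridine tracts and measures the length of new transcripts, had 405 and 374 CPM in the libraries labelled cKO and 288 and 301 CPM in those labelled Control. The groups lay well apart, with a fold of 1.32 (log2 fold change 0.40, SE 0.11, n = 2 per group) and an adjusted p of 0.325 in edgeR. Hnrnpa2b1, which packages nuclear RNA and sorts dendritic messages, had 844 and 845 CPM in libraries labelled cKO and 693 and 714 CPM in those labelled Control. The 2 cKO values were almost equal and both lay above the Control values (log2 fold change 0.26, SE 0.09). Its relative Hnrnpa3 had 124 and 137 CPM in libraries labelled cKO and 100 and 99.9 CPM in those labelled Control (log2 fold change 0.38, SE 0.12).

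Hnrnph3, of the family that binds runs of guanines, had 90.9 and 91.8 CPM in libraries labelled cKO and 68.5 and 70.8 CPM in those labelled Control. Hnrnpf, of the same family, had 230 and 239 CPM in libraries labelled cKO and 179 and 203 CPM in those labelled Control. Both genes separated the groups, Hnrnph3 by 0.39 (SE 0.13) and Hnrnpf by 0.30 (SE 0.12) on the log2 scale. Hnrnpll, a regulator of exon skipping best known from activated T cells, had 95.4 and 107 CPM in libraries labelled cKO and 78.1 and 74.8 CPM in those labelled Control (log2 fold change 0.40, SE 0.13). Hnrnpab had 737 and 822 CPM in libraries labelled cKO and 604 and 673 CPM in those labelled Control (log2 fold change 0.29, SE 0.10). Hnrnpu, which encodes a scaffold-attachment factor, had 517 and 570 CPM in libraries labelled cKO and 454 and 449 CPM in those labelled Control (log2 fold change 0.27, SE 0.10). After adjustment in edgeR, p for these 7 hnRNP genes besides Hnrnpc was 0.39 to 0.439.

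Hnrnpdl and Hnrnpul2 were the hnRNP genes with negative values. Hnrnpdl, which regulates itself through alternative splicing at its 3′ end, had 333 and 295 CPM in libraries labelled cKO and 338 and 378 CPM in those labelled Control. Those groups nearly touched. The log2 fold change of Hnrnpdl was -0.19 (SE 0.12) and that of Hnrnpul2 -0.20 (SE 0.20). Hnrnpul2 was also the lowest hnRNP gene per length, at 5.97 ± 1.18 TPM in libraries labelled cKO and 6.95 ± 0.19 TPM in those labelled Control (SD, n = 2). The highest per length was Hnrnpk, a binder of cytosine-rich sequences, at 1355 and 1364 TPM in libraries labelled cKO and 1090 and 1174 TPM in those labelled Control. On the CPM scale the Hnrnpk groups overlapped (1245 and 1128 CPM labelled cKO, 1054 and 1144 CPM labelled Control; log2 fold change 0.11, SE 0.09). The other 9 hnRNP genes had log2 fold changes of 0.04 to 0.20.

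SR protein genes followed a similar pattern with smaller numbers. Of 11 genes, 10 were positive, 3 had an unadjusted p below 0.05 and 4 did not overlap upward (36.4%). None did so downward, and the median log2 fold change was 0.21. The shares over all genes tested were 5.28% higher at that p, and 22.0% without overlap upward and 22.2% downward. Srsf1, the founding SR protein and a regulator of both splicing and decay, had 163 and 179 CPM in libraries labelled cKO and 134 and 125 CPM in those labelled Control. The log2 fold change was 0.40 (SE 0.12), with an adjusted p of 0.363 in edgeR, and the groups did not overlap. Srsf9 had 103 and 91.4 CPM in libraries labelled cKO and 69.7 and 76.8 CPM in those labelled Control (log2 fold change 0.41, SE 0.14, edgeR adjusted p = 0.399). Srsf3, a small SR protein that also serves mRNA export and that limits itself through the poison exon printed above, had 545 and 509 CPM in libraries labelled cKO and 433 and 449 CPM in those labelled Control (log2 fold change 0.26, SE 0.10). Srsf5 was the fourth gene without overlap, at 321 and 313 CPM in libraries labelled cKO and 265 and 277 CPM in those labelled Control (log2 fold change 0.23, SE 0.10).

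Not all SR genes moved with these. Srsf2, the SR protein gene with the highest level per length (343 ± 30.7 TPM in libraries labelled cKO and 343 ± 17.6 TPM in those labelled Control; SD, n = 2), had a log2 fold change of 0.03 (SE 0.10). Srsf6 stood at 171 and 182 CPM in libraries labelled cKO and at 176 and 186 CPM in those labelled Control, with the only negative value of the family (-0.03, SE 0.12), whose sign turned with upper-quartile scaling (0.0061) and without cKO 2 or Control 3. Srsf7, an mRNA export adaptor as well as a splicing factor, had a log2 fold change of 0.08 (SE 0.11). Srsf12, the lowest per length at 20.5 TPM over all libraries, ranged from 22.6 to 30.2 CPM among the Control libraries alone and covered both cKO values.

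**Figure D2:**
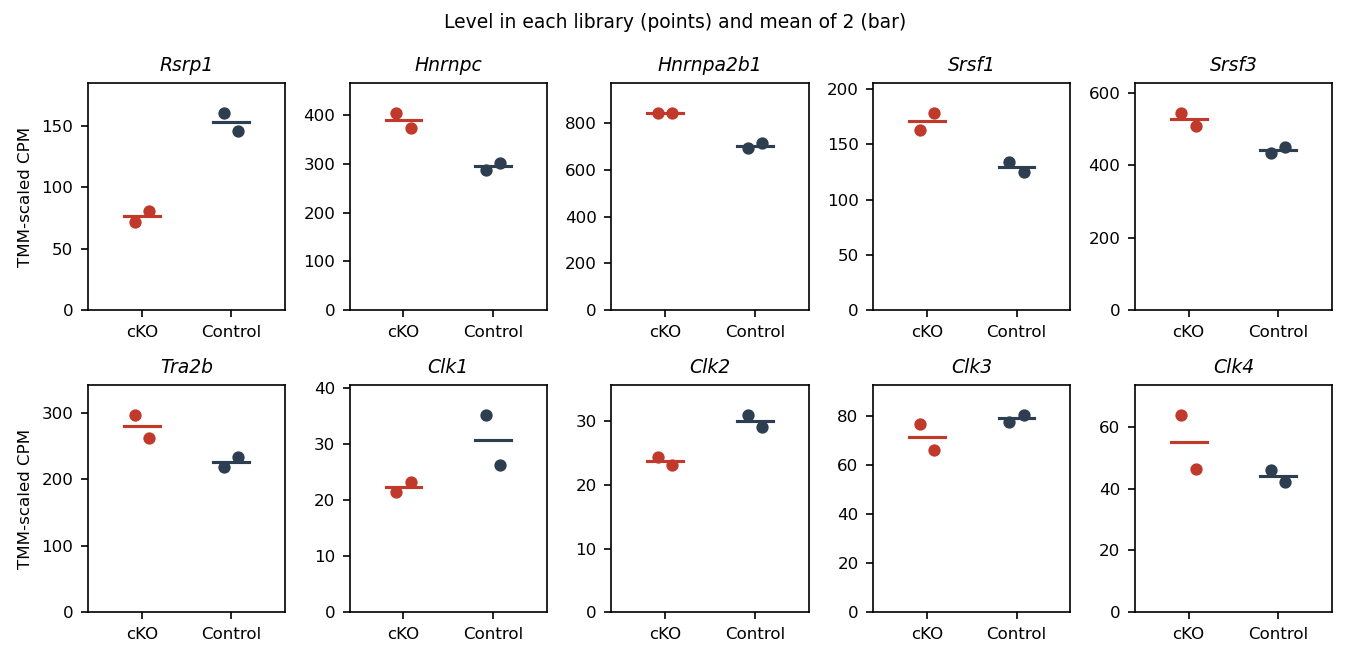
CPM after TMM scaling (vertical axes, from 0) of 10 members in each library (points), with the mean of each group of 2 (bars), cKO left of Control. Rsrp1 lies at 72.2 and 80.4 CPM in libraries labelled cKO and 161 and 146 CPM in those labelled Control; Hnrnpc, Hnrnpa2b1, Srsf1, Srsf3 and Tra2b lie higher in the libraries labelled cKO, and Clk1, Clk2 and Clk3 lower.

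Rsrp1, a gene for an arginine- and serine-rich protein whose molecular role is little studied, differed most of all members. It had 72.2 and 80.4 CPM in the libraries labelled cKO (counts of 1371 and 1837) and 161 and 146 CPM in those labelled Control (counts of 3159 and 2879). Libraries labelled cKO averaged 76.3 ± 5.83 CPM and those labelled Control 153 ± 10.4 CPM (SD, n = 2), and the groups were far apart. The log2 fold change was -1.01 (SE 0.13), with an adjusted p of 0.136 in edgeR. It ranked 11 of 17017 genes by p. The log2 fold change stayed between -1.09 and -0.93 with each library left out. Rsrp1 passed the threshold with DESeq2 (adjusted p = 7.79e-08) and in edgeR with no filter on low counts (adjusted p = 0.00999), and not in the other settings tried, where adjusted p ran from 0.058 to 0.919. It shared no bases with another gene of the table (chromosome 4, 134650903 to 134654982, GRCm39).

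The remaining SR-related genes were split. Tra2b, a sequence-specific activator of exon inclusion related to the fly gene transformer-2, had 297 and 263 CPM in libraries labelled cKO and 218 and 233 CPM in those labelled Control. Its log2 fold change was 0.31 (SE 0.12, edgeR adjusted p = 0.426). Its paralog Tra2a had 36.2 and 25.1 CPM in libraries labelled cKO and 17.9 and 23.3 CPM in those labelled Control, a log2 fold change of 0.57 (SE 0.26) that was 0.29 without cKO 2 and 0.81 without cKO 3. Srrm2, a core scaffold of nuclear speckles, had 205 and 206 CPM in libraries labelled cKO and 175 and 148 CPM in those labelled Control (log2 fold change 0.35, SE 0.13). Son, the other speckle scaffold, overlapped (161 and 151 CPM labelled cKO, 152 and 144 CPM labelled Control), as did Srrm1, a splicing coactivator (log2 fold change 0.11, SE 0.14).

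Pnisr, which encodes a speckle-resident serine- and arginine-rich protein, had 77.7 and 65.1 CPM in libraries labelled cKO and 82.1 and 89.0 CPM in those labelled Control (log2 fold change -0.26, SE 0.15). The LUC7-like genes encode relatives of a yeast component of the U1 particle. Luc7l had 127 and 136 CPM in libraries labelled cKO and 120 and 105 CPM in those labelled Control (log2 fold change 0.23, SE 0.13). Luc7l3 stood at 52.6 and 44.8 CPM in libraries labelled cKO and at 56.6 and 56.8 CPM in those labelled Control (log2 fold change -0.22, SE 0.16). Luc7l2 was the lowest of these 10 genes per length, and its direction depended on the scale. It had 17.2 and 16.2 CPM in libraries labelled cKO and 15.2 and 15.8 CPM in those labelled Control, but 7.76 and 9.23 TPM in libraries labelled cKO and 11.8 and 10.4 TPM in those labelled Control.

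Of the CLK kinase genes, 3 were lower and 1 was higher, each without overlap and none past a p of 0.05. Over all genes tested, 22.2% did not overlap downward and 22.0% upward. Clk1, whose own transcript is held in the nucleus with retained introns and spliced on demand, had 21.5 and 23.3 CPM in libraries labelled cKO and 35.3 and 26.3 CPM in those labelled Control. Its log2 fold change was -0.46 (SE 0.22, edgeR adjusted p = 0.502), and without Control 2 the value was -0.23. Clk2 had 24.4 and 23 CPM in libraries labelled cKO and 31.0 and 29.1 CPM in those labelled Control (log2 fold change -0.34, SE 0.19). Clk3 had 76.8 and 66.2 CPM in libraries labelled cKO and 77.4 and 80.3 CPM in those labelled Control (log2 fold change -0.14, SE 0.14), so cKO 2 nearly touched Control 2, and the Clk3 value was -0.04 without cKO 3. Clk4, the closest relative of Clk1, went the other way, at 63.8 and 46.2 CPM in libraries labelled cKO and 45.9 and 42.0 CPM in those labelled Control (log2 fold change 0.32, SE 0.20), with cKO 3 close to Control 2. The Clk4 value was 0.07 without cKO 2 and 0.54 without cKO 3. Per length Clk4 was the highest CLK gene, at 68.6 ± 9.35 TPM in libraries labelled cKO and 53.7 TPM in both labelled Control, and Clk2 the lowest.

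The 11 members with a poison exon as defined above all had positive log2 fold changes, with a median of 0.26; 5 had an unadjusted p below 0.05 and 6 did not overlap upward. Of the 34 others, 25 were positive, with a median of 0.11, 8 had an unadjusted p below 0.05, and 16 did not overlap upward. Among all genes tested the shares were 49.8% positive, 5.28% higher at that p and 22.0% without overlap upward. With any annotated decay-type transcript as the criterion the order turned, with medians of 0.11 over 32 members and 0.19 over 13 without. No difference between these sets was tested, and gene counts do not separate transcripts.

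An indirect look at transcript make-up came from the estimated count divided by the TPM of a gene, which moves with the mean length of the transcripts assigned to it. Scaled within each library, this apparent length was longer in both libraries labelled cKO than in both labelled Control for 11 members (24.4%), against 24.2% of 15001 genes, and shorter for 6 (13.3%), against 13.2%. The members thus did not stand apart in number. The genes named for this measure were chosen after their values were seen. Luc7l2 had the largest difference, with 3697 and 3304 bases in libraries labelled cKO and 2305 and 2680 bases in those labelled Control. Hnrnpk had 1535 and 1556 bases in libraries labelled cKO and 1725 bases in both labelled Control. Rsrp1 had 2424 and 2498 bases in libraries labelled cKO and 2610 and 2807 bases in those labelled Control. The groups did not overlap in these genes, but for Rsrp1 the gap between groups was smaller than the difference between the Control libraries. No test was made at 2 libraries a side.

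**Figure D3:**
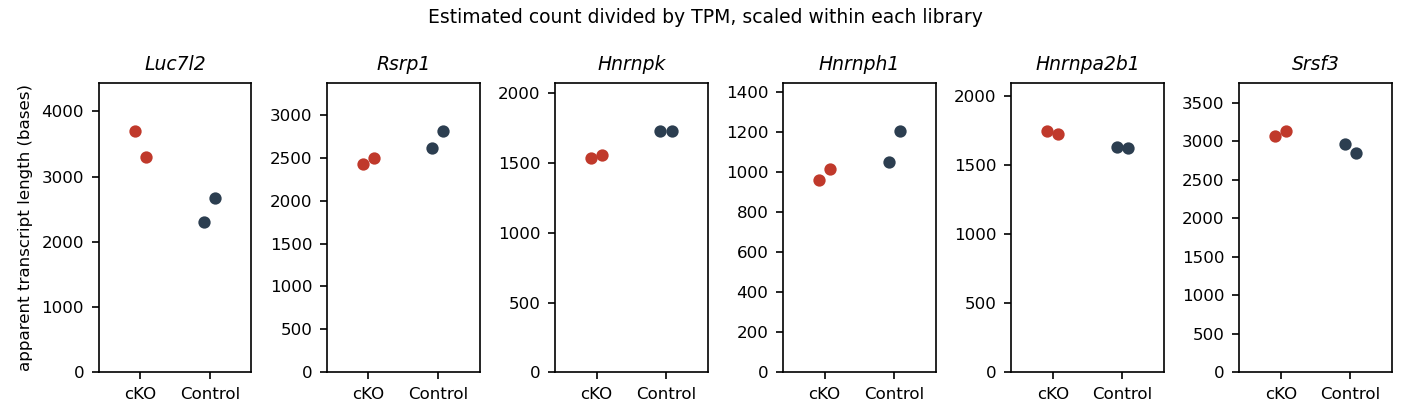
Apparent transcript length (bases, vertical axes from 0; estimated count over TPM, scaled within each library) of 6 members chosen after their values were seen, in each library, cKO left of Control. Luc7l2 is longer and Hnrnpk, Hnrnph1 and Rsrp1 are shorter in both libraries labelled cKO, and Hnrnpa2b1 and Srsf3 are slightly longer. For Hnrnph1, Rsrp1 and Srsf3 the gap between groups is smaller than the difference between the Control libraries.

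The promoters of the members were searched because most members differed in the same direction. RefSeq windows (250 bases before to 50 after the start; GRCm38.p6) were found for 40 members. The GC box, GGGCGG on either strand, was present for 32 of them (80%), against 38.2% of 27025 genes. The CCAAT box, searched like the others on both strands, was present for 23 (57.5%, against 41.1%), the ETS core CGGAAG for 13 (32.5%, against 18.8%) and TATAAA for 4 (10%, against 15.7%). The 27025 genes were not limited by their level in these libraries, while all members had a mean of at least 10 CPM. These shares thus do not compare genes of similar level. Matches are descriptions of these letters only, and a GC box and an ETS core can share bases. Printed here are the window of Rsrp1, which had the largest fold, and those of Hnrnpc and Srsf1, the higher members with the smallest p, with matches to the CCAAT box, GC box and ETS core on either strand in capitals.
Rsrp1, chr4:134923375-134923674, plus strand: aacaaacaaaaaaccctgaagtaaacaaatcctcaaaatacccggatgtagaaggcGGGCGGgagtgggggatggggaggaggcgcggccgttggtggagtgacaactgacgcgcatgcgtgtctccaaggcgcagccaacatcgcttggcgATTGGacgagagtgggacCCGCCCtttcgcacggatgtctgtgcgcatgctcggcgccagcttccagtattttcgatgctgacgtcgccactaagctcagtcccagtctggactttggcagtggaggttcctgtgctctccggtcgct
Hnrnpc, chr14:52103972-52104271, minus strand: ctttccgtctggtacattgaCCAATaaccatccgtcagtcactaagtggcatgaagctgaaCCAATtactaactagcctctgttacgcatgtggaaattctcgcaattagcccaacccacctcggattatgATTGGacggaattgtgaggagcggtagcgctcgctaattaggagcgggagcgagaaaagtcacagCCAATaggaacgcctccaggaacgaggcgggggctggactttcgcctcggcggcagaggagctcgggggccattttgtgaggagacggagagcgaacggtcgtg
Srsf1, chr11:88047123-88047422, plus strand: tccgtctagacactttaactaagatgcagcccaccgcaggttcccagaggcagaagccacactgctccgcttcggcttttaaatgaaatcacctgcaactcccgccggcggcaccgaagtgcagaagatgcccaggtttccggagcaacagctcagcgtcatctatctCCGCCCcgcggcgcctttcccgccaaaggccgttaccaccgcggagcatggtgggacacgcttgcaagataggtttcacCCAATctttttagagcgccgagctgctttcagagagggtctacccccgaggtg
Hnrnpc held 4 CCAAT matches and no GC box, Rsrp1 held 1 and 2, and Srsf1 held 1 of each.

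Other genes of the splicing pathway were taken from lists of textbook members, and no difference between these lists and the members was tested. Of 37 tested neuronal and tissue-specific splicing regulators, 22 were positive with a median of 0.13. An unadjusted p below 0.05 was reached by 5, all higher, and 17 did not overlap upward against 8 downward. Over all genes tested, 5.28% were higher and 5.66% lower at that p, and 22.0% did not overlap upward and 22.2% downward. Khdrbs3, which encodes a STAR-family regulator of neurexin splicing, stood first by p, with 387 and 405 CPM in libraries labelled cKO and 225 and 257 CPM in those labelled Control (log2 fold change 0.72, SE 0.12, edgeR adjusted p = 0.202). Rbm24 (0.75, SE 0.21), Elavl1 (0.38, SE 0.12) and Matr3 (0.27, SE 0.09) followed. The 27 core U1 and U2 snRNP genes had 18 positive members and a median of 0.04, and 2, Sf1 (0.32, SE 0.11) and Snrpb2 (0.44, SE 0.18), were higher at an unadjusted p below 0.05, beside Snrnp70 (0.32, SE 0.14) and Sf3a1 (-0.39, SE 0.17). The 25 genes of the U4/U6.U5 particle and of the catalytic steps were split 12 to 13, with a median of -0.02. In that list Prpf31 was lower at an unadjusted p below 0.05 (-0.33, SE 0.14), and Xab2 (-0.46, SE 0.20), Prpf4 (-0.49, SE 0.22) and Prpf3 (0.57, SE 0.28) were not past it. No gene of these lists passed edgeR's adjusted threshold; DESeq2 called Khdrbs3 (adjusted p = 3.31e-05).

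Of 14 tested genes for SR-protein kinases, nuclear import and phosphatases, 9 were positive with a median of 0.08. Dyrk2, a kinase gene, was higher at an unadjusted p below 0.05 (0.35, SE 0.13) and Tnpo3, which encodes the importin of SR proteins, lower (-0.30, SE 0.13). Next came Ppp1r8 (-0.26, SE 0.15) and Ppp1cb (0.22, SE 0.13). Among all genes tested, 5.28% were higher and 5.66% lower at an unadjusted p below 0.05. The 16 nonsense-mediated decay genes had 7 positive members, a median of -0.03 and none at an unadjusted p below 0.05; Smg1 had the smallest p (0.61, SE 0.26), followed by Upf3b (-0.35, SE 0.21), Smg8 (-0.34, SE 0.24) and Smg5 (-0.30, SE 0.21). Of 12 RNAs that stay largely or partly nuclear, 9 were negative with a median of -0.31. An unadjusted p below 0.05 was reached by 5, all lower, against 5.66% of all genes tested. Among the 9 was Xist (-0.78, SE 1.39), at 0 CPM in the male library cKO 3. Xist had 64.1 CPM in cKO 2, and 58.3 and 51.0 CPM in Control 2 and Control 3. Snhg11 had 34.4 and 31.3 CPM in libraries labelled cKO and 92.9 and 65 CPM in those labelled Control (log2 fold change -1.26, SE 0.20, edgeR adjusted p = 0.202). Meg3 (-0.88, SE 0.17), Miat (-0.46, SE 0.16) and Rian (-0.50, SE 0.18) came next. DESeq2 called Snhg11 (adjusted p = 5.29e-06) and Meg3 (adjusted p = 3.67e-05).

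**Figure D4:**
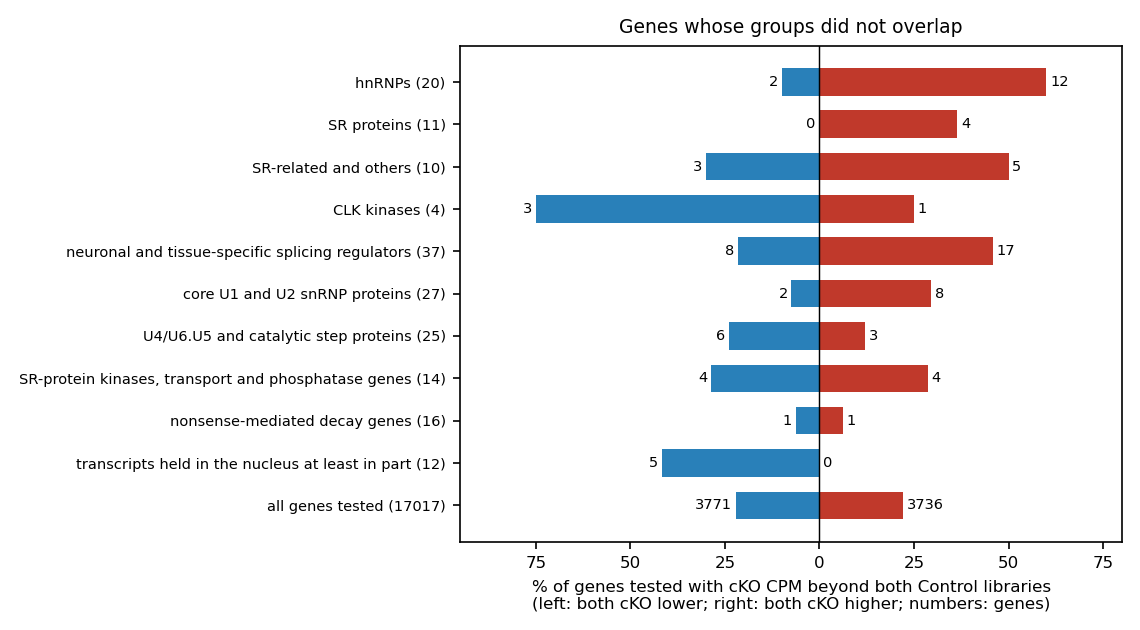
Share of the genes tested in each list (number in parentheses) whose CPM in both libraries labelled cKO lay above (right) or below (left) both labelled Control; numbers at the bars are genes. hnRNP genes reach 12 of 20 upward, Clk genes 3 of 4 downward, and all genes tested 22.0% upward and 22.2% downward.

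Other lists also differed between the groups, and their part in the values of the splicing genes was not tested. Dorsal cortex neuron markers were positive in 9 of 10 cases, with a median of 0.20. Striatal markers were negative in 13 of 13, with a median of -2.09 and summed levels of 171 and 168 CPM in libraries labelled cKO and 584 and 413 CPM in those labelled Control. Markers of ventral-born GABA neurons were negative in 10 of 11, with 892 and 776 CPM in libraries labelled cKO and 1060 and 986 CPM in those labelled Control. Meningeal and fibroblast markers were positive in 8 of 10, with 414 and 386 CPM in libraries labelled cKO and 283 and 336 CPM in those labelled Control. In these bulk samples fewer cells of a type and less RNA per cell cannot be told apart. Mitochondrially encoded genes were positive in 13 of 13 (median 0.17), and 15 of 16 cytosolic ribosomal protein genes were negative (median -0.20), lowest in cKO 3 with 4209 CPM in sum, against 5715 CPM in cKO 2 and 5247 and 5820 CPM in Control 2 and Control 3. Red blood cell markers summed to 4911 and 1875 CPM in libraries labelled cKO and 3090 and 3411 CPM in those labelled Control. No marker of these lists was at 0 in all libraries.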

How the data were processed

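RNA of 4 cortex libraries was measured with the SMART-Seq v4 kit, per the labels' protocols; the kit does not mark strand. The deposited table holds the authors' estimated counts and TPM values per gene (each TPM column sums to 1e+06). DRAGEN and GRCm39 are named in the submitters' processing notes; the sources used here give no version, annotation or settings. The deposited gene length, another column of the file, entered the scaling of apparent length within each library and no other value given here.

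Estimated counts were rounded. The default filter of edgeR 4.0.16 (R 4.3.3) left 17017 genes, scaled with TMM factors of 0.979 to 1.02. Genotype was the only term of the quasi-likelihood test, with Benjamini-Hochberg adjustment over all genes; SE is the absolute log2 fold change over the square root of F. Apparent length used genes with at least 10 counts in every library. The labels do not say whether libraries came from separate animals. By their sex, cKO 2 (female) and cKO 3 (male) came from different animals. Both Control libraries were female, so sex does not settle this for them. The p-values thus measure the spread between these libraries. Replicates were not duplicates (chi-square per degree of freedom 27.7 for cKO and 12.8 for Control). An exact permutation test of 2 against 2 cannot go below 0.333. Alternatives were RLE and upper-quartile scaling, 2 other filters, DESeq2 1.42.0, limma-voom (limma 3.58.1), robust shrinkage, a replicate block, protein-coding genes only and each library left out.

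The 45 members and 13 lists (215 symbols, all matched) were chosen with earlier results of these data known. Named with values are up to 10 members with the smallest p in each direction (9 were negative), the Clk genes, the 10 related genes, the highest and lowest SR and hnRNP gene per length, and up to 4 genes of each splicing list; marker lists are given by counts. Srsf3, Hnrnpf, Srsf5, Srsf7 and those of the length measure were named after their values were seen. Sequences come from GENCODE M21 transcripts and RefSeq promoters, both GRCm38.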

Additional observations from a re-analysis of the deposited data

How the results depend on the processing

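No member passed edgeR's adjusted threshold in any setting except Rsrp1, which gave the 1 member called lower with no filter and with DESeq2. The 13 members higher at an unadjusted p below 0.05 became 8 with the replicate block and 1 to 10 with each library left out, and the 1 lower member became 1 to 2 (2 without cKO 2, when 7.29% of all genes were lower). The count of higher members was 15 with upper-quartile scaling, when 6.58% of all genes were higher. It was 14 with no filter (3.89% of all genes), DESeq2 (3.06%) and protein-coding genes only (5.31%). The pairing of equal replicate numbers in the block has no support in the labels. The difference between replicates 2 and 3 correlated between groups with r = 0.014 over 17017 genes. The median log2 fold change of members was 0.11, and 0.15 with upper-quartile scaling, 0.13 with protein-coding genes only and 0.11 to 0.16 with each library left out; upper-quartile scaling moved the median of all genes to 0.04. Signs turned in at least 1 setting for 6 members: Srsf6 (0.0061 with upper-quartile scaling and -0.083 to 0.013 with libraries left out), Srsf12 (-0.090 to 0.33 with libraries left out), Srsf4 (-0.028 without cKO 3), Hnrnph2 (-0.029 without cKO 3), Hnrnpul1 (-0.096 without cKO 3 and -0.0061 without Control 2) and Hnrnpr (-0.0052 without Control 2). The counts of longer and shorter apparent length became 18 to 22 and 10 to 12 with a library left out, where fewer libraries must separate and 33.9% to 54.4% of all genes were longer and 21.1% to 37.5% shorter. The causes of the other shifts were not tested. The lowest count of any member was 299, for Luc7l2 in Control 2.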

Other observations

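Several members share sequence or position with other genes, which bears on counts without strand. Of the 45 members, 23 overlapped no other gene of the table and 18 overlapped a gene on the opposite strand. Srsf2 shared 3194 bases with Mettl23, which had 989 and 1051 counts in libraries labelled cKO and 1018 and 948 in those labelled Control, and Hnrnpab shared 4390 bases with Phykpl (247 and 318 counts labelled cKO, 237 and 219 labelled Control). Hnrnph3 shared 2547 bases with Rufy2, which had 832 and 1029 counts in libraries labelled cKO and 920 and 811 in those labelled Control. Hnrnpu shared 1586 bases with Cox20 (436 and 449 counts labelled cKO, 370 and 319 labelled Control). The shared bases were counted over whole gene spans, introns included, and overlap of exons was not checked. Only where exons of both genes overlap may reads without strand fail to tell such pairs apart.

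Pseudogene copies named after a member were found for Srsf3, Tra2b and Hnrnpa1. The Srsf3 copy had 279 and 315 counts in libraries labelled cKO and 212 and 192 in those labelled Control. It made up 2.63% and 2.64% of the counts of gene and copy in libraries labelled cKO, and 2.43% and 2.12% in those labelled Control. The Hnrnpa1 copies had 15 and 9 counts in cKO 2 and cKO 3 and 2 and 3 counts in Control 2 and Control 3, and the Tra2b copy had none. Copies with other names were not searched for.

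The sign differed between CPM and TPM in 4 members: Srsf2, Srsf12, Hnrnpa0 and Luc7l2. Only in Luc7l2 among these did the groups separate on both scales.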
